A study of Homo sapiens with 8 samples.

Results

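The interaction of the *ERF* and *CIC* losses was measured in the immortalized prostate epithelial line PNT2 as the part of each gene's level in the double-loss cells that the sum of the single-loss effects leaves over. All 8 libraries of the study entered it, in 4 groups of 2, named by the letters A and B. The groups were the parental line (WT), the line labelled *ERF* KD, that labelled *CIC* KO, and the double line *ERF* KD + *CIC* KO. *ERF* was silenced by stably expressed short hairpin RNAs under puromycin and *CIC* was cut by guide RNAs with Cas9 under blasticidin, each with 2 constructs, and the double lines joined 1 of the hairpins with each of the 2 guides. Every line descended from parental PNT2, and which construct a library carries, or whether A and B are separate cultures, is not given in the sources used here, so that the p-values measure only the spread between these libraries. For each gene the term was the log2 level in *ERF* KD + *CIC* KO minus that in labelled *ERF* KD, minus that in labelled *CIC* KO, plus that in WT. A term of 0 means that the single-loss folds multiply in the double line, and a term above or below 0 that the double line lies above or below that product. Of 33791 genes with a matched transcript, 22195 had a count above 0 in at least 1 library, and 14653 had enough reads to be tested.

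*CIC* is a repressor that binds octamers in the control regions of the PEA3 genes *ETV1*, *ETV4* and *ETV5*, and *ERF* is an ETS-domain repressor that occupies GGAA sites used by activating ETS factors. ERK signalling relieves repression by both. Epithelial cells are held together by cadherin junctions and desmosomes, and the ZEB factors silence many of these genes during the epithelial-mesenchymal transition, while OVOL, GRHL and ESRP factors keep the epithelial program.

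The targeted genes were examined first. *ERF* mRNA (chr19:42247572-42255157 of GRCh38, minus strand) stood at 55.9 and 55.9 CPM in WT, 81.2 and 77.8 in labelled *ERF* KD, 18.8 and 11.7 in labelled *CIC* KO, and 11.6 and 10.4 in *ERF* KD + *CIC* KO. Low *ERF* values were thus found in labelled *CIC* KO libraries and in the double line but not in labelled *ERF* KD, against the labels. *CIC* mRNA (chr19:42268537-42295797, plus strand) stood at 128 and 129 CPM in WT, 108 and 109 in labelled *ERF* KD, 132 and 131 in labelled *CIC* KO, and 90.9 and 66.4 in *ERF* KD + *CIC* KO, and since a Cas9 cut need not lower a gene's mRNA, this does not check the *CIC* label. Both single-loss groups are therefore named with the word labelled. Exchanging these 2 labels leaves every term as it is, since both single-loss groups enter with the same weight. The sorting by group and the comparisons with single-loss groups given below do depend on the labels, and their names would be exchanged. The *ERF* term was -0.98 ± 0.293 SE, adjusted p = 0.124 (0.0436 once the replicate letter was a block), and the *CIC* term was -0.50 ± 0.2201 SE, adjusted p = 0.293.

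The estimated counts summed to between 19477473 and 25813157 per library, and 3 counts were worth 0.127 to 0.169 CPM (counts scaled to a common library size), the unit of the levels given here. Replicates differed by more than counting noise in every group, with a rank correlation across genes from 0.984 to 0.99. Of the 6 basal markers 5, *KRT5* among them, had enough reads to be tested, and of the 7 luminal markers 4. In WT the tested luminal markers summed to 3030 to 3721 CPM and the tested basal ones to 500 to 686. KLK3 and MSMB, secretory proteins of luminal prostate cells, had 0 counts in all 8 libraries.

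The term passed an adjusted p of 0.05 in 608 of the 14653 genes (4.15%) by the quasi-likelihood test of edgeR, adjusted after Benjamini and Hochberg. In 391 genes (2.67%) the double line was above the sum and in 217 (1.48%) below it. With the replicate letter as a block the count was 1400 (9.55%), with 780 above and 620 below, and DESeq2 gave 1112. An unadjusted p under 0.05 was found in 2565 genes, 1315 above and 1250 below. Leaving out WT A, WT B, *CIC* KO B, *ERF* KD + *CIC* KO A or *ERF* KD + *CIC* KO B left 272, 317, 331, 296 and 403 calls. The median term was 2.50 over the genes called above and -1.65 over those called below, against -0.0042 over all genes tested. Each of the 608 had the same sign within the A libraries and within the B libraries, which 62.2% of all tested genes had, and each kept its sign on the linear CPM scale. The genes were called from these same libraries, so that the kept signs are not separate support for the calls. Of the called genes 603 were protein coding. Of the 91 called genes chosen by size of term or by list, 43 kept the call whichever library was left out and 48 lost it in at least 1 of these 8 fits, 33 of them in 5 or more. *AXL*, *B3GALNT1*, *FZD10*, *FZD2*, *GRK3*, *NTRK3* and *SEL1L* lost it in all 8.

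**Figure D1:**
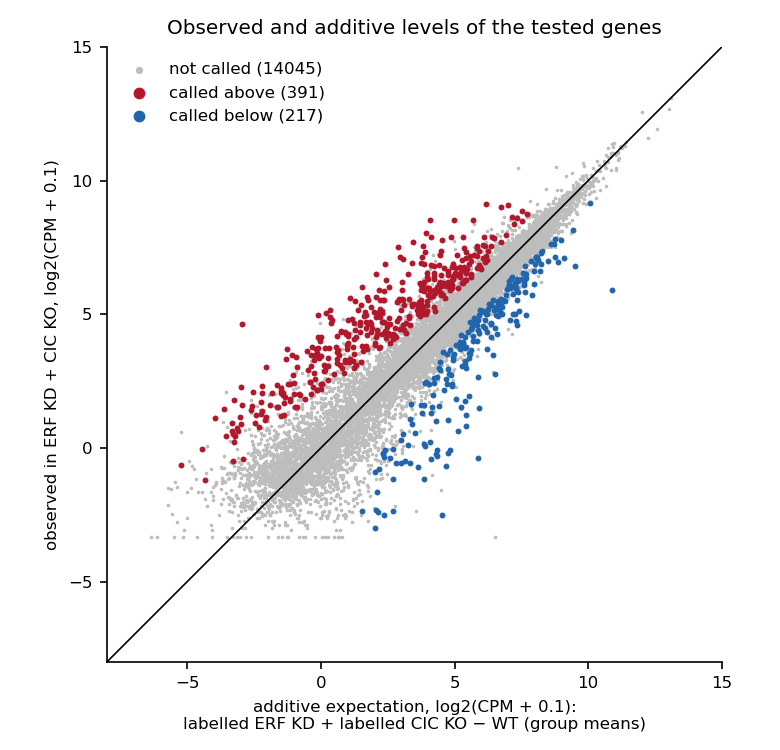
Observed level in *ERF* KD + *CIC* KO (vertical axis) against the additive expectation from labelled *ERF* KD, labelled *CIC* KO and WT (horizontal axis), both as group means of log2(CPM + 0.1), for 14653 genes. The line marks equality, the 391 red genes lie above it and the 217 blue genes below it.

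The called genes were then sorted by the group that stood apart, defined as the group whose removal left the other 3 group means within a range under 0.5 of the absolute term. Labelled *ERF* KD stood apart in 532 of the 608 genes (87.5%), 361 above and 171 below. In the 361 genes the median log2 difference from WT was -2.47 in labelled *ERF* KD, -0.06 in labelled *CIC* KO and 0.05 in the double line. In the 171 genes it was 1.36, 0.15 and -0.12. In most called genes, then, the labelled *ERF* KD libraries departed from WT and the double line did not follow them. *ERF* KD + *CIC* KO stood apart in 29 genes (9 above, 20 below), WT in 6, labelled *CIC* KO in 5, and no single group in 36.

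**Figure D2:**
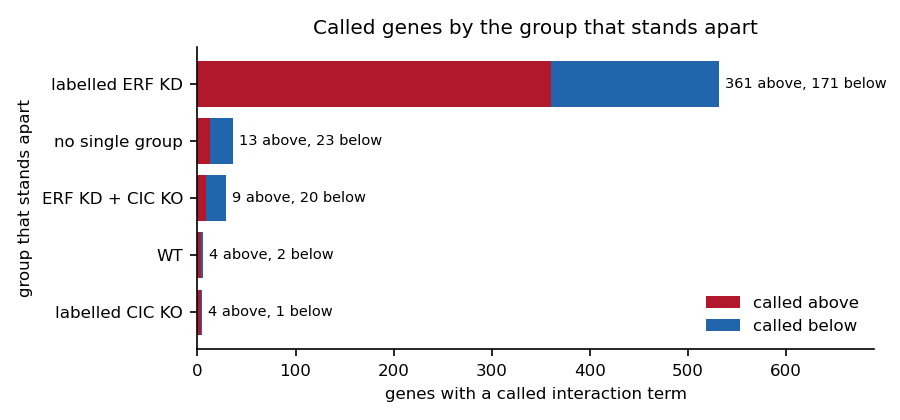
Number of genes with a called term (horizontal axis) by the group that stands apart (vertical axis), red for above and blue for below the additive expectation. Labelled *ERF* KD holds 532 of the 608 genes and *ERF* KD + *CIC* KO 29.

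The comparisons that make up the term had unequal numbers of calls. Labelled *ERF* KD differed from WT in 1477 genes (10.1%) and *ERF* KD + *CIC* KO from labelled *ERF* KD in 1709 (11.7%). *ERF* KD + *CIC* KO differed from WT in 10 genes (0.0682%). With edgeR 0 genes were called between *ERF* KD + *CIC* KO and labelled *CIC* KO (0.0%) and 0 between labelled *CIC* KO and WT (0.0%). These had 1216 and 587 genes at an unadjusted p under 0.05. With the replicate block these 5 counts were 2671, 3014, 365, 49 and 1. The comparisons share libraries, and the term with each of them.

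The epithelial polarity and junction list, which also holds regulators such as *OVOL1*, *OVOL2* and *ESRP1*, had the greatest share of calls among the 33 pathway lists. The lists were chosen with earlier results of these data known, so that this rank and share are descriptions. Of 36 members tested, 26 were called above (72.2%) and 0 below, where 33 were above and 0 below at an unadjusted p under 0.05 and DESeq2 called 30 and 0. In all 26 labelled *ERF* KD stood apart. The median term was 2.75, with median differences from WT of -2.73 in labelled *ERF* KD, -0.0047 in labelled *CIC* KO and 0.09 in the double line. Without each library in turn the calls ran from 21 to 28.

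*CDH1* (chr16:68737225-68835548, plus strand), which encodes E-cadherin, the adhesion receptor of epithelial junctions, stood at 362 and 385 CPM in WT, 17.6 and 17.6 in labelled *ERF* KD, 341 and 297 in labelled *CIC* KO, and 258 and 273 in *ERF* KD + *CIC* KO. The labelled *ERF* KD libraries fell below the 6 others and the groups did not overlap. The additive expectation for the double line was 15.1 CPM, and the term was 4.14 ± 0.1895 SE, adjusted p = 9.79e-05. *ESRP1*, which sets epithelial splice forms, stood at 208 and 206 CPM in WT, 10.4 and 14.3 in labelled *ERF* KD, 197 and 172 in labelled *CIC* KO, and 194 and 225 in *ERF* KD + *CIC* KO. Its term was 4.25 ± 0.253 SE, adjusted p = 0.000228. *OVOL2*, a zinc finger factor that restrains the mesenchymal program, stood at 15.2 and 15.1 CPM in WT, 0.672 and 0.894 in labelled *ERF* KD, 12.8 and 14.5 in labelled *CIC* KO, and 14.01 and 13.4 in *ERF* KD + *CIC* KO. Its term was 4.27 ± 0.312 SE, adjusted p = 0.000429. Both again had their low values in labelled *ERF* KD alone. *OVOL1*, its relative, stood at 0.672 and 2.23 CPM in labelled *ERF* KD and between 21.4 and 35.5 CPM in the 6 others. The *OVOL1* term was 4.47 ± 0.614 SE, adjusted p = 0.00684. *CLDN7*, a tight junction claudin, stood at 123 and 165 CPM in WT, 7.21 and 8.54 in labelled *ERF* KD, 136 and 126 in labelled *CIC* KO, and 167 and 197 in *ERF* KD + *CIC* KO. Its expectation in the double line was 7.29 CPM and its term 4.67 ± 0.261 SE, adjusted p = 0.0001999. *GRHL2*, which drives junction genes, stood at 14.1 and 17.6 CPM in labelled *ERF* KD and between 149.8 and 190.5 CPM in the 6 others. *GRHL2* had a term of 3.73 ± 0.202 SE, adjusted p = 0.000196. *EPCAM*, an epithelial adhesion molecule, stood at 41.1 and 29.4 CPM in labelled *ERF* KD and between 249.5 and 381 CPM in the 6 others. The *EPCAM* term was 3.51 ± 0.261 SE, adjusted p = 0.000429.

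Promoters of the called epithelial genes are shown because ZEB factors act on the E-box CAGGTG, written CACCTG on the other strand. RefSeq windows (GRCh38.p14, from 250 bases before to 50 after a start) were held for 12 of the 26 called members, and for 73.5% of all called genes, so that a comparison of motif shares over these sets is void, as under 80% of their members had a window. Of the 11166 tested genes with a window, 24.7% held the motif. Of the 12 members 2 held a *CIC* octamer and 2 the ETS motif CCGGAAGT, and these shares were likewise not compared. The 3 windows below are those whose E-box lay before the start and outside annotated exons, read in the gene's direction with the E-box in capitals. They were thus picked for holding the E-box, and binding by ZEB factors was not tested. *RAB25* (chr1:156061094-156061149, plus strand), which steers recycling of apical membrane, held the motif ending 35 bases before the start. *AP1M2* (chr19:10587339-10587394, minus strand), an adaptor subunit that sorts proteins to the basolateral membrane, held it 51 bases before, and *TJP1* (chr15:29969107-29969162, minus strand), the scaffold ZO-1, held it 82 bases before.
*RAB25*: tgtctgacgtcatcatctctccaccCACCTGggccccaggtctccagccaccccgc
*AP1M2*: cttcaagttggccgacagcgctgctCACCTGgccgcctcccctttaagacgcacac
*TJP1*: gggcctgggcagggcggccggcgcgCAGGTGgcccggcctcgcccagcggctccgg

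*RAB25* mRNA stood at 2.83 and 3.53 CPM in labelled *ERF* KD and between 42.2 and 58.5 CPM in the 6 others (term 3.95 ± 0.281 SE, adjusted p = 0.000388), *AP1M2* at 9.85 and 10.1 CPM in labelled *ERF* KD and between 92.9 and 120.2 CPM in the 6 others (term 3.49 ± 0.184 SE, adjusted p = 0.000196) and *TJP1* at 189.8 and 185 CPM in labelled *ERF* KD and between 288 and 392 CPM in the 6 others. *TJP1* had a term of 0.96 ± 0.1898 SE, adjusted p = 0.0304. The terms of *RAB25* and *AP1M2* were thus larger than that of *TJP1*. The E-box read CACCTG in *RAB25* and *AP1M2* and CAGGTG in *TJP1*, and its part in these terms was not tested. *CDH1*, *GRHL2*, *EPCAM*, *RAB25*, *AP1M2* and *TJP1* were chosen after their values were seen.

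The ZEB genes themselves moved the other way. *ZEB1* (chr10:31318495-31529814, plus strand) stood at 6.08 and 7.04 CPM in WT, 41.1 and 48.98 in labelled *ERF* KD, 8.37 and 9.04 in labelled *CIC* KO, and 2.497 and 2.93 in *ERF* KD + *CIC* KO. The additive expectation in the double line was 59.6 CPM, and the term was -4.46 ± 0.2803 SE, adjusted p = 0.000244. *ZEB2* stood at 3.47 and 4.79 CPM in WT, 40.1 and 38.2 in labelled *ERF* KD, 3.86 and 3.94 in labelled *CIC* KO, and 3.09 and 2.48 in *ERF* KD + *CIC* KO. Its term was -3.72 ± 0.325 SE, adjusted p = 0.000824. For both genes the 2 double-line values were the lowest of the 8. These were the 2 called members of 9 tested EMT transcription factors (22.2% below), and the count without each library in turn was 2 or 3. *SNAI2*, the factor SLUG, was not called, at 74.3 and 77.04 CPM in WT, 16.7 and 52.1 in labelled *ERF* KD, 78.1 and 90.2 in labelled *CIC* KO, and 102 and 61.2 in *ERF* KD + *CIC* KO. The *SNAI2* term was 1.10 ± 0.631 SE, adjusted p = 0.442. *TWIST1*, a basic helix-loop-helix factor, was not called either. *TWIST1* had a term of -0.59 ± 0.402 SE, adjusted p = 0.529.

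Mesenchymal markers had 2 called members of 15, both below (13.3%), and 1 without WT A. *VIM*, the intermediate filament vimentin, stood at 105 and 211 CPM in WT, 1497 and 1953 in labelled *ERF* KD, 131 and 212 in labelled *CIC* KO, and 32.4 and 109 in *ERF* KD + *CIC* KO. Its term was -4.73 ± 0.793 SE, adjusted p = 0.0157, and its A and B values differed within WT, labelled *CIC* KO and the double line while staying under both labelled *ERF* KD values. *CDH2*, N-cadherin, stood at 45.4 and 61.3 CPM in WT, 178 and 195 in labelled *ERF* KD, 57.1 and 78.3 in labelled *CIC* KO, and 44.1 and 63.3 in *ERF* KD + *CIC* KO. Its term was -2.14 ± 0.3295 SE, adjusted p = 0.0108. *FN1*, fibronectin, was not called and was at 3038 and 3948 CPM in WT, 1587 and 1966 in labelled *ERF* KD, 3185 and 3604 in labelled *CIC* KO, and 2053 and 2831 in *ERF* KD + *CIC* KO. The *FN1* term was 0.50 ± 0.299 SE, adjusted p = 0.462.

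**Figure D3:**
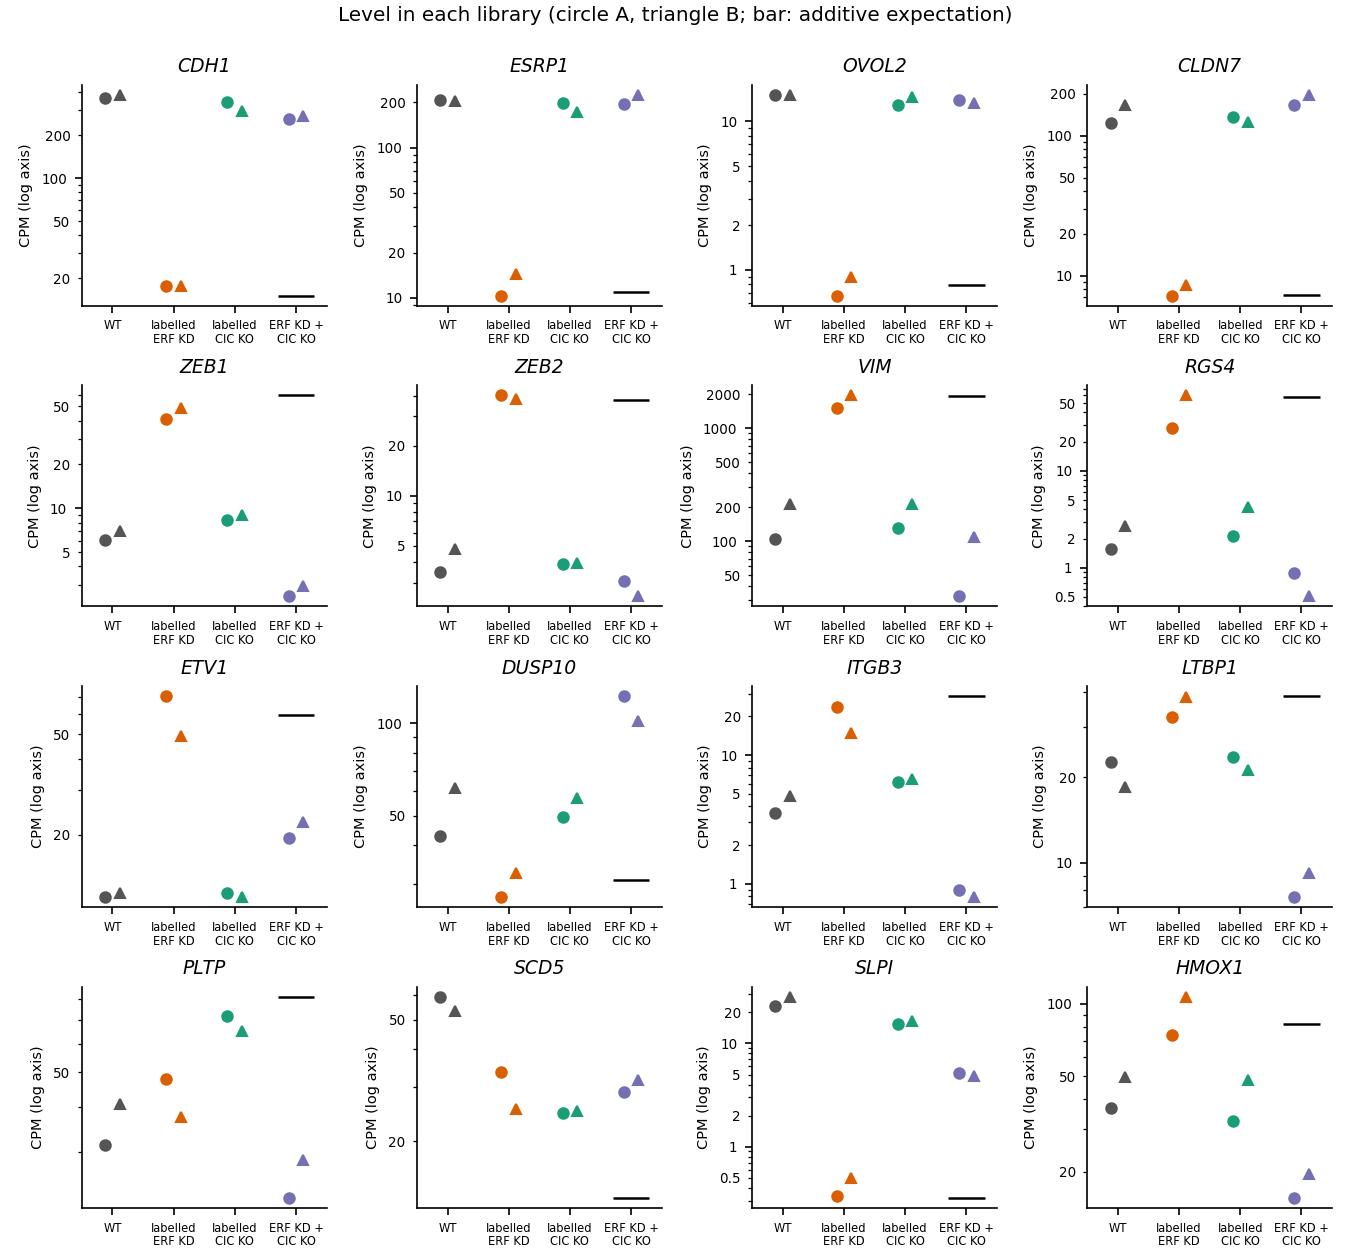
CPM on a log axis in each library for 16 genes, with circles for replicate A, triangles for replicate B and a black bar for the additive expectation in *ERF* KD + *CIC* KO. In the first 8 panels labelled *ERF* KD lies apart, in *DUSP10*, *ITGB3* and *LTBP1* the double line does, in *PLTP* labelled *CIC* KO, in *SCD5* WT, and in *ETV1*, *SLPI* and *HMOX1* no single group.

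Matrix and crosslinking genes had 6 of 39 members called, all below (15.4%), with a median term of -0.83. The count was 3 without WT A and 2 without *ERF* KD + *CIC* KO A, and the block gave 17 below and 4 above. *LOX*, a lysyl oxidase that crosslinks collagen, stood at 6.93 and 16.98 CPM in WT, 44.5 and 44.2 in labelled *ERF* KD, 8.18 and 12.6 in labelled *CIC* KO, and 1.91 and 5.64 in *ERF* KD + *CIC* KO. *LOX* had a term of -3.38 ± 0.744 SE, adjusted p = 0.0452. *VCAN*, the proteoglycan versican, stood at 5.94 and 5.91 CPM in WT, 40.1 and 27.4 in labelled *ERF* KD, 0.418 and 1.06 in labelled *CIC* KO, and 0.212 and 0.226 in *ERF* KD + *CIC* KO. *VCAN* was highest in labelled *ERF* KD and lowest in the double line, and its term was -4.24 ± 0.633 SE, adjusted p = 0.00992. *EDIL3*, a secreted integrin ligand, stood at 1.33 and 1.48 CPM in WT, 24.5 and 9.73 in labelled *ERF* KD, 0.186 and 0.433 in labelled *CIC* KO, and 0 and 0.0564 in *ERF* KD + *CIC* KO. The double line was at or under 3 counts for *EDIL3*, so no fold is given. *LAMA1*, a laminin chain, stood at 3.94 and 5.61 CPM in WT, 4.32 and 5.41 in labelled *ERF* KD, 4.32 and 5.77 in labelled *CIC* KO, and 0.677 and 1.07 in *ERF* KD + *CIC* KO, which put the double line alone below the rest. The *LAMA1* term was -2.57 ± 0.515 SE, adjusted p = 0.0314. With length-scaled counts it was -1.51 (adjusted p = 0.392) and in limma on log2(TPM + 1) -0.36 (adjusted p = 0.730).

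Desmosome genes had 5 of 12 members called, all above (41.7%), and 4 to 6 without each library in turn. *DSP*, desmoplakin, stood at 610.5 and 603 CPM in WT, 131 and 148 in labelled *ERF* KD, 544 and 559 in labelled *CIC* KO, and 608 and 494 in *ERF* KD + *CIC* KO. *DSP* had a term of 2.12 ± 0.209 SE, adjusted p = 0.001402. *JUP*, plakoglobin, stood at 53.2 and 33.5 CPM in labelled *ERF* KD and between 157 and 202 CPM in the 6 others. The *JUP* term was 2.10 ± 0.328 SE, adjusted p = 0.0114. *DSC2*, a desmosomal cadherin, stood at 13.1 and 11.5 CPM in labelled *ERF* KD and between 42.3 and 49.5 CPM in the 6 others (term 1.77 ± 0.203 SE, adjusted p = 0.00307), and *PKP3*, a plakophilin, had a term of 1.71 ± 0.259 SE, adjusted p = 0.0103. Keratins had 1 of 15 called (6.67% above), and 8 with the block. That one was *KRT81*, a hair keratin with close paralogues, at 3.03 and 2.73 CPM in labelled *ERF* KD and between 19.6 and 46.6 CPM in the 6 others. *KRT81* had a term of 3.64 ± 0.285 SE, adjusted p = 0.000543. *KRT5*, the basal keratin, was not called at 139.5 and 234 CPM in WT, 15.03 and 19.2 in labelled *ERF* KD, 141 and 343 in labelled *CIC* KO, and 90.7 and 256 in *ERF* KD + *CIC* KO (term 2.97 ± 0.772 SE, adjusted p = 0.0821; 0.00143 with the block). No member of the 9 hemidesmosome and laminin-332 genes was called by edgeR or DESeq2, 1 had an unadjusted p under 0.05, and the block called 3 above.

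Squamous differentiation and innate defence genes had 7 of 21 members called, all above (33.3%), and 7 or 8 without each library in turn. *KLK7*, a skin serine protease, stood at 17.7 and 26.8 CPM in WT, 0.432 and 0.497 in labelled *ERF* KD, 20.1 and 16.9 in labelled *CIC* KO, and 9.02 and 13.5 in *ERF* KD + *CIC* KO. Its term was 4.84 ± 0.458 SE, adjusted p = 0.00117. *KLK6*, another kallikrein, stood at 2.26 and 4.97 CPM in labelled *ERF* KD and between 64.3 and 100.4 CPM in the 6 others. The *KLK6* term was 4.42 ± 0.443 SE, adjusted p = 0.00151. *S100A9*, a calprotectin subunit, stood at 2.897 and 5.2 CPM in WT, 0 and 0.0497 in labelled *ERF* KD, 3.81 and 4.23 in labelled *CIC* KO, and 3.68 and 6.15 in *ERF* KD + *CIC* KO, and as labelled *ERF* KD was at or under 3 counts no fold is given. *SLPI*, a secreted leukocyte protease inhibitor, stood at 22.8 and 28.3 CPM in WT, 0.336 and 0.497 in labelled *ERF* KD, 15.5 and 16.4 in labelled *CIC* KO, and 5.21 and 4.79 in *ERF* KD + *CIC* KO. *SLPI* thus came in 3 steps, with the double line between labelled *ERF* KD and the other groups, and its term was 4.25 ± 0.353 SE, adjusted p = 0.000687.

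Cell type markers are given beside these epithelial groups. Of the basal, luminal and fibroblast lists 0 members were called by edgeR, where 2 basal and 3 luminal members above and 1 fibroblast member below had an unadjusted p under 0.05, DESeq2 called 1 basal and 1 luminal member, and the block called 2 basal and 3 luminal members above. The summed level of the 5 tested basal markers of 6 was 119 to 221 CPM in labelled *ERF* KD, 500 to 686 in WT, 579 to 793 in labelled *CIC* KO and 397 to 625 in the double line. That of the 4 tested luminal markers of 7 was 1588 to 2059 CPM in labelled *ERF* KD, 3030 to 3721 in WT, 3333 to 4296 in labelled *CIC* KO and 3248 to 4139 in the double line. The sum of the 5 tested fibroblast markers of 7 ran from 42.6 to 116 CPM in labelled *ERF* KD and from 23.1 to 65.4 in the 6 other libraries, with LUM at 0 counts in every library. In bulk libraries fewer cells of a type and less RNA per cell cannot be told apart, and the part of a changed cell mixture in the terms was not tested.

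*ETV1* (chr7:13891228-13991425, minus strand), a PEA3 transcription factor, stood at 11.3 and 11.7 CPM in WT, 70.7 and 49.4 in labelled *ERF* KD, 11.8 and 11.4 in labelled *CIC* KO, and 19.5 and 22.4 in *ERF* KD + *CIC* KO. Labelled *CIC* KO lay at WT level, and the double line between WT and labelled *ERF* KD, under its expectation of 59.5 CPM. The term was -1.53 ± 0.276 SE, adjusted p = 0.0212. *ETV4* stood at 17.4 and 23.5 CPM in WT, 65.5 and 51.01 in labelled *ERF* KD, 20.4 and 27.3 in labelled *CIC* KO, and 61.8 and 62.8 in *ERF* KD + *CIC* KO, close to its expectation of 67.5 CPM. Its term was -0.13 ± 0.295 SE, adjusted p = 0.896. *ETV5* stood at 21.8 and 28.1 CPM in WT, 109 and 82.6 in labelled *ERF* KD, 31.4 and 34.9 in labelled *CIC* KO, and 66.5 and 55.4 in *ERF* KD + *CIC* KO, with a term of -1.07 ± 0.271 SE, adjusted p = 0.0766 (0.0387 with the block). Of these 3 genes *ETV1* was called without the block, and DESeq2 called *ETV5* as well (adjusted p = 0.0128). The terms of the 3 genes were not tested against each other. The *ETV1* call was lost with length-scaled counts (adjusted p = 0.220), in limma on log2(TPM + 1) and log2(TPM + 0.1) (adjusted p = 0.273 in each) and in glmTreat (adjusted p = 0.347). Among the 10 PEA3 and MAPK feedback genes *ETV1* was the 1 call (10%, below), the block added *ETV5*, and the call was lost without WT A, WT B, *CIC* KO A, *CIC* KO B or either double-line library. *DUSP6*, an ERK phosphatase, was not called (term -1.16 ± 0.544 SE, adjusted p = 0.3295), nor was *SPRY4*, a feedback inhibitor of receptor signalling. *SPRY4* had a term of -0.60 ± 0.449 SE, adjusted p = 0.574.

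Of 18 other ETS factors, 2 were called above (11.1%), 4 above and 2 below with the block, 1 without WT A, *CIC* KO A or *ERF* KD + *CIC* KO A and 0 without WT B. *ETS2* stood at 213 and 244 CPM in WT, 120.4 and 118 in labelled *ERF* KD, 157 and 185 in labelled *CIC* KO, and 266 and 204 in *ERF* KD + *CIC* KO (term 1.40 ± 0.234 SE, adjusted p = 0.0153) and *ELF1* at 74.2 and 63.4 CPM in labelled *ERF* KD and between 85.5 and 112 CPM in the 6 others. The *ELF1* term was 0.91 ± 0.184 SE, adjusted p = 0.0326. The study's 91 shared binding targets joined *CIC* peaks from PNT2 with *ERF* peaks from public data in VCaP prostate cancer cells. Of these, 76 matched the annotation and 58 were tested. The 3 called were *IL20RA* and *CREG2* above (3.45%) and *ETV1* below (1.72%), near the shares of 2.67% and 1.48% over all genes. The block called 3 above and 5 below, and 1 was left without *ERF* KD + *CIC* KO B. *CREG2* stood at 11 and 17.8 CPM in labelled *ERF* KD and between 50.3 and 63.1 CPM in the 6 others (term 1.99 ± 0.326 SE, adjusted p = 0.0143), and *IL20RA*, an interleukin receptor chain, at 4.65 and 5.91 CPM in WT, 0.04803 and 0.149 in labelled *ERF* KD, 2.93 and 2.94 in labelled *CIC* KO, and 1.14 and 1.41 in *ERF* KD + *CIC* KO, with labelled *ERF* KD at or under 3 counts.

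**Figure D4:**
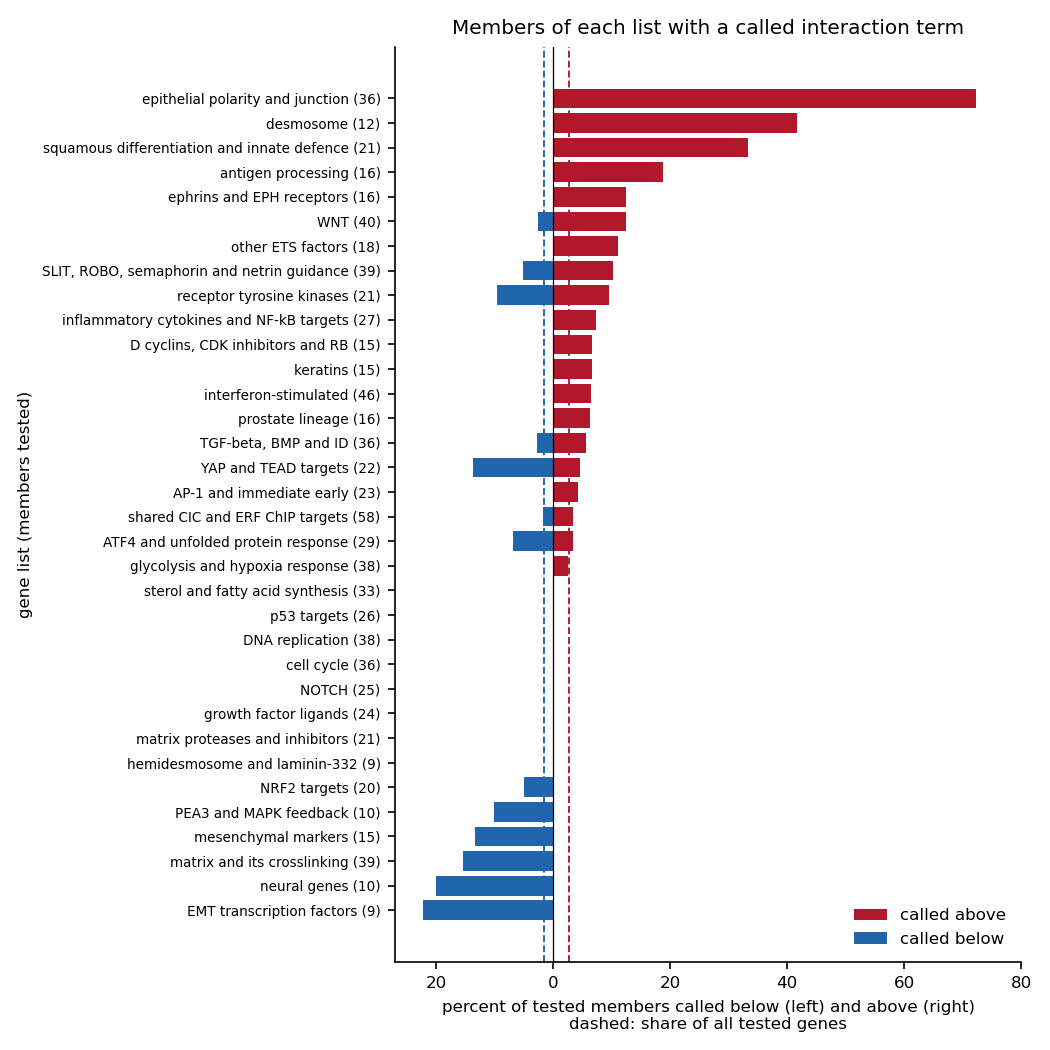
Percent of the tested members of each gene list (vertical axis, number tested in parentheses) called below (left, blue) and above (right, red) the additive expectation. Dashed lines give the shares over all genes, 1.48% below and 2.67% above, and the epithelial polarity and junction list reaches 72.2%.

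*ERF* KD + *CIC* KO stood apart in 29 called genes. With the limit on the other groups' range at 0.333 of the term in place of 0.5, the count was 7. *DUSP10* (chr1:221701424-221742176, minus strand), a phosphatase of the stress kinases p38 and JNK, stood at 42.9 and 61.4 CPM in WT, 27.1 and 32.5 in labelled *ERF* KD, 49.4 and 56.96 in labelled *CIC* KO, and 123 and 102 in *ERF* KD + *CIC* KO. Both double-line values were above all others, against an expectation of 30.8 CPM, and the term was 1.89 ± 0.284 SE, adjusted p = 0.0101. *CPPED1*, a phosphatase of the calcineurin-like fold, stood at 35.1 and 33.5 CPM in WT, 20.2 and 23.2 in labelled *ERF* KD, 37.5 and 32.9 in labelled *CIC* KO, and 66.1 and 67.2 in *ERF* KD + *CIC* KO. Its term was 1.58 ± 0.196 SE, adjusted p = 0.00432. *GPRC5C*, an orphan receptor, stood at 2.19 and 4.08 CPM in WT, 1.78 and 2.04 in labelled *ERF* KD, 3.95 and 3.22 in labelled *CIC* KO, and 10.8 and 11.6 in *ERF* KD + *CIC* KO. *GPRC5C* had a term of 2.35 ± 0.486 SE, adjusted p = 0.0354. *IFIH1*, the RNA sensor MDA5, stood at 95.03 and 131 CPM in WT, 65.2 and 57.3 in labelled *ERF* KD, 84.6 and 71.5 in labelled *CIC* KO, and 232 and 111 in *ERF* KD + *CIC* KO, where the double-line B value lay inside the WT range. The *IFIH1* term was 2.02 ± 0.447 SE, adjusted p = 0.0466.

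Below the sum, *ITGB3* (chr17:47253846-47311816, plus strand), the beta-3 integrin, stood at 3.56 and 4.79 CPM in WT, 23.8 and 14.8 in labelled *ERF* KD, 6.18 and 6.54 in labelled *CIC* KO, and 0.889 and 0.789 in *ERF* KD + *CIC* KO. The single-loss values were both above WT and the double line below it, at an expectation of 28.8 CPM and a term of -5.12 ± 0.453 SE, adjusted p = 0.000887. *ITGB3* shares 2266 exonic bases of its strand with AC068234.1. *LTBP1*, which binds latent TGF-beta in the matrix, stood at 22.6 and 18.6 CPM in WT, 32.6 and 38.4 in labelled *ERF* KD, 23.6 and 21.2 in labelled *CIC* KO, and 7.58 and 9.19 in *ERF* KD + *CIC* KO. *LTBP1* had a term of -2.20 ± 0.262 SE, adjusted p = 0.00349. *CADM1*, an immunoglobulin adhesion molecule, stood at 6.98 and 8.11 CPM in WT, 10.04 and 8.89 in labelled *ERF* KD, 3.49 and 3.56 in labelled *CIC* KO, and 0.677 and 0.338 in *ERF* KD + *CIC* KO. The *CADM1* term was -3.07 ± 0.464 SE, adjusted p = 0.0102. *FSCN1*, the actin bundler fascin, stood at 157 and 184 CPM in WT, 179 and 172 in labelled *ERF* KD, 163 and 219 in labelled *CIC* KO, and 58.1 and 87.7 in *ERF* KD + *CIC* KO. *FSCN1* had a term of -1.44 ± 0.3102 SE, adjusted p = 0.04196. For *LTBP1*, *CADM1* and *FSCN1* both double-line values were under all 6 others. *KCNQ3*, a potassium channel, stood at 1.52 and 2.702 CPM in WT, 6.53 and 15.6 in labelled *ERF* KD, 4.65 and 3.42 in labelled *CIC* KO, and 0.423 and 1.297 in *ERF* KD + *CIC* KO. The *KCNQ3* term was -4.65 ± 0.854 SE, adjusted p = 0.0223. *ANKRD34A* stood at 1.95 and 1.99 CPM in WT, 8.02 and 7.45 in labelled *ERF* KD, 3.07 and 0.818 in labelled *CIC* KO, and 0 and 0.282 in *ERF* KD + *CIC* KO. Its term was -5.86 ± 1.23 SE, adjusted p = 0.03697. Without *ERF* KD + *CIC* KO B it was -10.34, as *ERF* KD + *CIC* KO A had 0 counts. The call was kept in that fit and without *CIC* KO B, and lost without each of the 6 other libraries. *NTRK3*, the neurotrophin receptor TRKC, stood at 0.665 and 1.38 CPM in WT, 2.31 and 2.14 in labelled *ERF* KD, 3.02 and 2.36 in labelled *CIC* KO, and 0.593 and 0.733 in *ERF* KD + *CIC* KO (term -3.14 ± 0.668 SE, adjusted p = 0.0396), so that the WT values overlapped those of the double line. *CPPED1*, *LTBP1*, *CADM1* and *FSCN1* were chosen after their values were seen. In *ERF* KD + *CIC* KO against WT only *CADM1* of these 29 genes was called without the block, with a log2 difference of -3.84 and an adjusted p of 0.0157, and 11 of the 29 were called with it.

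**Figure D5:**
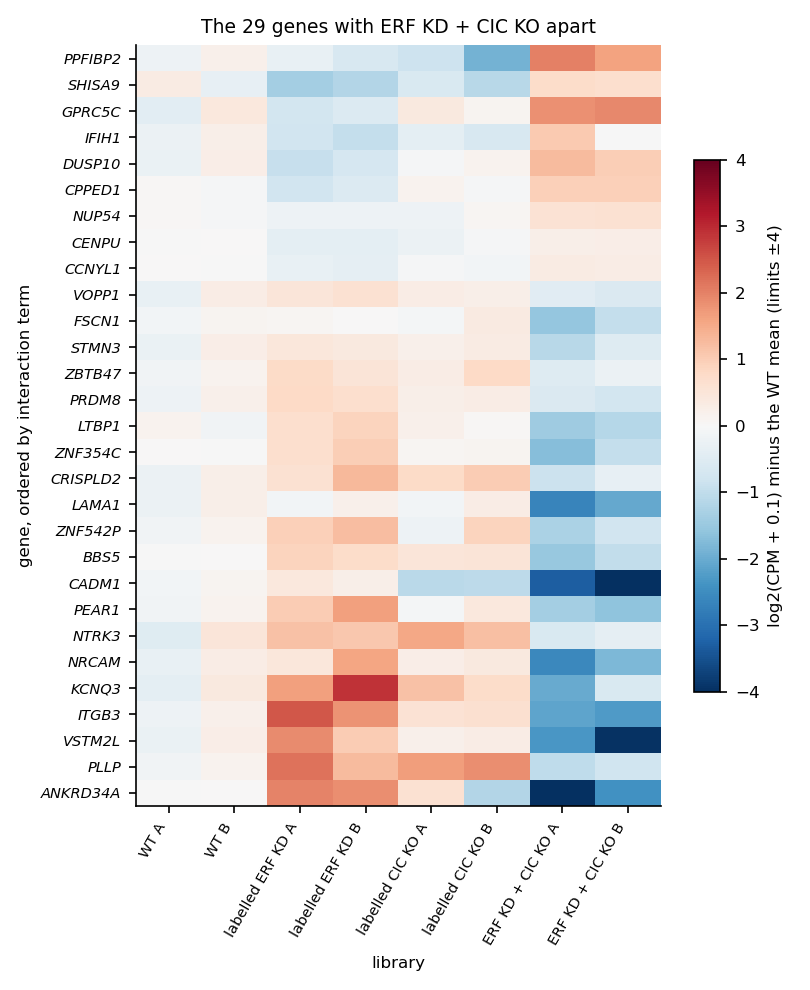
The 29 called genes in which *ERF* KD + *CIC* KO stands apart (rows, ordered by term) in the 8 libraries (columns), coloured by log2(CPM + 0.1) minus the WT mean, with the scale ending at 4 in either direction. The 2 double-line columns on the right lie over the WT mean in 17 of the 18 cells of the 9 upper genes, with *IFIH1* in replicate B at it, and under it in all 40 cells of the 20 lower genes.

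WT stood apart in 6 genes, where the 3 other group means lay on the same side of it. *SCD5*, a stearoyl-CoA desaturase, stood at 59.4 and 53.2 CPM in WT, 33.7 and 25.4 in labelled *ERF* KD, 24.8 and 25.1 in labelled *CIC* KO, and 28.9 and 31.8 in *ERF* KD + *CIC* KO. Each loss alone came with about the level of both together, above the expectation of 13.1 CPM. Its term was 1.21 ± 0.234 SE, adjusted p = 0.0276. *CCL5*, a chemokine, stood at 7.504 and 10.1 CPM in WT, 0.865 and 0.944 in labelled *ERF* KD, 1.49 and 0.674 in labelled *CIC* KO, and 2.92 and 1.01 in *ERF* KD + *CIC* KO. *CCL5* had a term of 4.15 ± 0.7999 SE, adjusted p = 0.0272. *GRK3*, a kinase that desensitizes G-protein-coupled receptors, stood at 19.7 and 18.3 CPM in WT, 9.51 and 11.6 in labelled *ERF* KD, 10.5 and 12.7 in labelled *CIC* KO, and 18.6 and 14.8 in *ERF* KD + *CIC* KO, with the double line nearest to WT. The *GRK3* term was 1.38 ± 0.292 SE, adjusted p = 0.0387. *B3GALNT1*, a glycosyltransferase, was likewise nearest to WT in the double line, at 9.55 and 11.3 CPM in WT, 18.2 and 15.8 in labelled *ERF* KD, 15.2 and 16.6 in labelled *CIC* KO, and 11.01 and 11.6 in *ERF* KD + *CIC* KO. *B3GALNT1* had a term of -1.20 ± 0.263 SE, adjusted p = 0.0442. In *GRK3* and *B3GALNT1* the double-line A value lay inside the WT range, so that only the group means set WT apart. The other 2, *MAGEE1* and AL136295.4, had a group at or under 3 counts.

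Labelled *CIC* KO stood apart in 5 genes. *PLTP* (chr20:45898621-45912155, minus strand), the phospholipid transfer protein, stood at 31.3 and 40.7 CPM in WT, 47.9 and 37.5 in labelled *ERF* KD, 72.02 and 65.2 in labelled *CIC* KO, and 22.3 and 28.4 in *ERF* KD + *CIC* KO. It was highest in labelled *CIC* KO and lowest in the double line. Its term was -1.68 ± 0.278 SE, adjusted p = 0.0149. *ZCCHC3*, a nucleic acid-binding zinc finger protein, stood at 5.84 and 4.95 CPM in WT, 3.51 and 2.93 in labelled *ERF* KD, 0.651 and 2.502 in labelled *CIC* KO, and 11.3 and 8.35 in *ERF* KD + *CIC* KO. The *ZCCHC3* term was 3.38 ± 0.726 SE, adjusted p = 0.0405. *TIAM2*, an exchange factor for RAC, stood at 17.1 and 15.4 CPM in WT, 10.2 and 14.2 in labelled *ERF* KD, 9.16 and 9.43 in labelled *CIC* KO, and 16.2 and 19.4 in *ERF* KD + *CIC* KO (term 1.36 ± 0.303 SE, adjusted p = 0.0474), and shares 713 exonic bases of its strand with *SCAF8*. With length-scaled counts the *TIAM2* term was 0.56 (adjusted p = 0.650) and in limma on log2(TPM + 1) 0.60 (adjusted p = 0.647). The other 2, *TCAF2P1* and *URGCP-MRPS24*, had a group at or under 3 counts.

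No single group stood apart in 36 genes, where the groups formed several steps. *HMOX1*, heme oxygenase, stood at 36.9 and 49.6 CPM in WT, 74.2 and 107 in labelled *ERF* KD, 32.4 and 48.2 in labelled *CIC* KO, and 15.5 and 19.6 in *ERF* KD + *CIC* KO, with the double line lowest and labelled *ERF* KD highest. *HMOX1* had a term of -2.27 ± 0.374 SE, adjusted p = 0.0148. It was the 1 called member of 20 NRF2 targets (5% below; 2 with the block), and that list had 0 calls without WT A or *ERF* KD + *CIC* KO A and 2 without *ERF* KD B. *NFATC1*, a calcium-regulated transcription factor, stood at 1.47 and 1.63 CPM in WT, 0.04803 and 0.199 in labelled *ERF* KD, 4.23 and 2.21 in labelled *CIC* KO, and 12.8 and 7.84 in *ERF* KD + *CIC* KO. This put labelled *ERF* KD under WT and the double line over it. Its term was 5.28 ± 0.799 SE, adjusted p = 0.0102. *PLSCR4*, a scramblase, stood at 3.47 and 3.57 CPM in WT, 39.8 and 14.1 in labelled *ERF* KD, 2.28 and 0.674 in labelled *CIC* KO, and 0.508 and 0.733 in *ERF* KD + *CIC* KO. The *PLSCR4* term was -4.20 ± 0.919 SE, adjusted p = 0.0442.

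The largest terms outside the lists given so far came from genes that labelled *ERF* KD nearly lost or gained. *SLIT2*, *WNT10A*, *GBP6*, *POU3F2* and *RGS4* are members of lists counted below. *SLIT2*, a secreted guidance ligand, stood at 7.22 and 4.64 CPM in WT, 0 and 0.348 in labelled *ERF* KD, 4.74 and 2.502 in labelled *CIC* KO, and 32.2 and 19.2 in *ERF* KD + *CIC* KO. The double line held more *SLIT2* than any other library, at a term of 7.89 ± 0.973 SE, adjusted p = 0.00428, which was 12.77 without *ERF* KD B. *ANO2*, a calcium-activated chloride channel, also had its highest values there, at 2.66 and 1.89 CPM in WT, 0.2402 and 0.149 in labelled *ERF* KD, 3.81 and 2.69 in labelled *CIC* KO, and 18.2 and 8.96 in *ERF* KD + *CIC* KO. *ANO2* had a term of 5.56 ± 0.689 SE, adjusted p = 0.00432. *MDFI*, an inhibitor of myogenic factors, stood at 0.336 and 1.79 CPM in labelled *ERF* KD and between 27.1 and 36.4 CPM in the 6 others. The *MDFI* term was 4.86 ± 0.628 SE, adjusted p = 0.00514. *WNT10A*, a WNT ligand, stood at 30.1 and 28.1 CPM in WT, 2.02 and 0.944 in labelled *ERF* KD, 24.8 and 19.97 in labelled *CIC* KO, and 34.6 and 31.6 in *ERF* KD + *CIC* KO. Its term was 4.85 ± 0.397 SE, adjusted p = 0.000646. *TRPV6*, an epithelial calcium channel, stood at 0.288 and 0 CPM in labelled *ERF* KD and between 2.69 and 7.03 CPM in the 6 others. *TRPV6* had a term of 4.89 ± 1.02 SE, adjusted p = 0.0369. Without *ERF* KD A it was 9.54, as *ERF* KD B had 0 counts, and the call was lost without either WT, *CIC* KO or double-line library. *GBP6*, *RUBCNL*, *CRCT1* and *VWA2* had labelled *ERF* KD at or under 3 counts in both libraries. *GBP6*, a guanylate-binding protein, stood at 3.704 and 7.495 CPM in WT, 0 and 0 in labelled *ERF* KD, 2.37 and 4.76 in labelled *CIC* KO, and 1.44 and 2.99 in *ERF* KD + *CIC* KO. *RUBCNL*, a regulator of autophagy, stood at 3.32 and 2.804 CPM in WT, 0 and 0.0993 in labelled *ERF* KD, 4.93 and 5.68 in labelled *CIC* KO, and 8 and 8.01 in *ERF* KD + *CIC* KO. Both were close to 0 in labelled *ERF* KD and present in every other library. *CRCT1*, a gene of the epidermal differentiation cluster, stood at 0 and 0.149 CPM in labelled *ERF* KD and between 3.302 and 10.6 CPM in the 6 others, and *VWA2*, a secreted protein with von Willebrand domains, at 0.0961 and 0.149 CPM in labelled *ERF* KD and between 1.99 and 5.79 CPM in the 6 others.

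Below the sum, *POU3F2*, a neural POU factor, stood at 0.19 and 0.204 CPM in WT, 15.5 and 15.4 in labelled *ERF* KD, 0.233 and 0.481 in labelled *CIC* KO, and 0.212 and 0 in *ERF* KD + *CIC* KO. The *POU3F2* term was -7.80 ± 1.04 SE, adjusted p = 0.00584. Without *ERF* KD + *CIC* KO A it was -12.11, as *ERF* KD + *CIC* KO B had 0 counts. *RGS4*, which shuts off G-protein signals, stood at 1.57 and 2.702 CPM in WT, 27.4 and 60.05 in labelled *ERF* KD, 2.14 and 4.19 in labelled *CIC* KO, and 0.889 and 0.507 in *ERF* KD + *CIC* KO. *RGS4* had a term of -6.49 ± 0.757 SE, adjusted p = 0.00319. Both were seen almost only in labelled *ERF* KD and are the 2 called of 10 neural genes tested (20% below). *CD180*, a Toll-like receptor homologue, stood at 31.5 and 36.8 CPM in labelled *ERF* KD and between 0.233 and 0.902 CPM in the 6 others. The *CD180* term was -5.39 ± 0.767 SE, adjusted p = 0.00787. *PMP22*, a myelin membrane protein, stood at 37.6 and 21.7 CPM in labelled *ERF* KD and between 0.385 and 1.78 CPM in the 6 others. *PMP22* had a term of -4.81 ± 0.869 SE, adjusted p = 0.0212. *PTX3*, a secreted pentraxin, stood at 13.3 and 19.5 CPM in labelled *ERF* KD and between 0.593 and 3.75 CPM in the 6 others (term -5.56 ± 1.01 SE, adjusted p = 0.0216), with the labelled *CIC* KO replicates at 0.697 and 3.75 CPM. *SPP1*, osteopontin, stood at 8.89 and 19.8 CPM in labelled *ERF* KD and between 0.169 and 1.83 CPM in the 6 others. The *SPP1* term was -5.55 ± 1.12 SE, adjusted p = 0.0326. *NFASC*, neurofascin, stood at 1.66 and 1.89 CPM in WT, 11.3 and 11.5 in labelled *ERF* KD, 4.18 and 2.502 in labelled *CIC* KO, and 0.593 and 0.846 in *ERF* KD + *CIC* KO, so that both single-loss groups were above WT and the double line under it. *NFASC* had a term of -4.91 ± 0.511 SE, adjusted p = 0.00187.

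Interferon-stimulated genes had a median term of 1.45, behind only those of the epithelial and squamous lists among the 33, with 3 of 46 called, all above (6.52%). Beside 1315 above and 1250 below among all 14653 genes at an unadjusted p under 0.05, the list had 18 and 0. With the block it had 11 and 0. The double-line libraries differed here, and the calls were 9 without *ERF* KD + *CIC* KO B and 6 without *ERF* KD A. *HERC5*, a ligase for *ISG15*, stood at 52.3 and 65.6 CPM in WT, 26.9 and 23.8 in labelled *ERF* KD, 47.01 and 39.4 in labelled *CIC* KO, and 113 and 67.2 in *ERF* KD + *CIC* KO. The *HERC5* term was 2.28 ± 0.349 SE, adjusted p = 0.0107. *MX1*, an antiviral GTPase, was not called and stood at 279 and 418 CPM in WT, 251 and 40.1 in labelled *ERF* KD, 203 and 141 in labelled *CIC* KO, and 709 and 109 in *ERF* KD + *CIC* KO (term 2.51 ± 1.29 SE, adjusted p = 0.379), with A over B in every group but WT. *IFIT1*, which binds viral RNA, stood at 176 and 265 CPM in WT, 154 and 113 in labelled *ERF* KD, 132 and 129.9 in labelled *CIC* KO, and 327 and 195 in *ERF* KD + *CIC* KO (term 1.72 ± 0.399 SE, adjusted p = 0.0545; 0.02303 with the block). Of 16 antigen processing genes 3 were called above (18.8%), with 6 by the block and 0 without WT A, *CIC* KO A, *CIC* KO B or *ERF* KD + *CIC* KO A and 1 without WT B or *ERF* KD B. *HLA-B*, a class I heavy chain with close paralogues, stood at 453 and 461 CPM in WT, 225 and 122 in labelled *ERF* KD, 312 and 280.2 in labelled *CIC* KO, and 706 and 373 in *ERF* KD + *CIC* KO. *HLA-B* had a term of 2.27 ± 0.4799 SE, adjusted p = 0.0389. *TAP2*, a peptide transporter that shares 2064 exonic bases of its strand with AL669918.1, had a term of 1.44 ± 0.261 SE, adjusted p = 0.0214, and *CD74*, the class II invariant chain, of 1.37 ± 0.2496 SE, adjusted p = 0.0216. The 2 called of 27 cytokine and NF-kB genes (7.41% above; 4 above and 2 below with the block; 1 without WT A, WT B, *ERF* KD A, *ERF* KD B or *CIC* KO B) were *CCL5* and *CXCL16*, a chemokine at 5.19 and 2.93 CPM in labelled *ERF* KD and between 38.4 and 54.05 CPM in the 6 others. The *CXCL16* term was 3.54 ± 0.344 SE, adjusted p = 0.00133.

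Guidance, receptor and ligand genes moved in both directions, beside 2.67% called above and 1.48% below over all genes. Of 39 SLIT, ROBO, semaphorin and netrin genes 4 were called above (10.3%) and 2 below (5.13%), 8 and 5 with the block, and 3 in all without WT B or either double-line library. *SEMA4A* stood at 0.192 and 0.298 CPM in labelled *ERF* KD and between 2.37 and 7.95 CPM in the 6 others (term 3.60 ± 0.542 SE, adjusted p = 0.0101), while *SEMA7A* and *NTN1* had terms of 1.44 and 1.44 (adjusted p = 0.0186 and 0.01604). *NRP1*, the semaphorin co-receptor, stood at 339 and 410 CPM in labelled *ERF* KD and between 127 and 144 CPM in the 6 others (term -1.50 ± 0.2003 SE, adjusted p = 0.00585), and *SEMA3E* had a term of -2.27 ± 0.411 SE, adjusted p = 0.0214. Of 16 ephrin and EPH genes 2 were called above (12.5%). *EPHA1* stood at 2.93 and 2.93 CPM in labelled *ERF* KD and between 27.9 and 38.9 CPM in the 6 others (term 3.84 ± 0.228 SE, adjusted p = 0.000228) and *EPHB3* at 1.201 and 1.59 CPM in labelled *ERF* KD and between 14.1 and 30.9 CPM in the 6 others. *EPHB3* had a term of 4.42 ± 0.351 SE, adjusted p = 0.000597. Of 21 receptor tyrosine kinases 2 were called above and 2 below (9.52% each), 4 and 3 with the block, and 1 or 2 in all without any library but *ERF* KD A. *MST1R*, the RON receptor, stood at 17.7 and 12.5 CPM in labelled *ERF* KD and between 78.7 and 104 CPM in the 6 others. The *MST1R* term was 2.29 ± 0.249 SE, adjusted p = 0.00221. *FGFR2*, a fibroblast growth factor receptor, stood at 19.7 and 15.2 CPM in WT, 2.402 and 0.546 in labelled *ERF* KD, 19.5 and 7.99 in labelled *CIC* KO, and 24.1 and 12.7 in *ERF* KD + *CIC* KO. *FGFR2* had a term of 3.98 ± 0.876 SE, adjusted p = 0.0452. *AXL*, a receptor for *GAS6*, stood at 996 and 1078 CPM in labelled *ERF* KD and between 559.5 and 663 CPM in the 6 others. The *AXL* term was -0.88 ± 0.185 SE, adjusted p = 0.0373. *FGFR2* was thus low and *AXL* high in labelled *ERF* KD, and *NTRK3*, given above, was the fourth.

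Of 40 WNT genes 5 were called above (12.5%) and 1 below (2.5%), 8 and 3 with the block, and 3 in all without WT A, WT B, *ERF* KD B, *CIC* KO B or *ERF* KD + *CIC* KO B. *WNT7A* stood at 0.432 and 0.397 CPM in labelled *ERF* KD and between 3.95 and 10.7 CPM in the 6 others. *WNT7A* had a term of 3.76 ± 0.429 SE, adjusted p = 0.00292. *WNT7B* stood at 31.5 and 29.1 CPM in WT, 3.03 and 3.87 in labelled *ERF* KD, 18.2 and 17.7 in labelled *CIC* KO, and 10.9 and 7.72 in *ERF* KD + *CIC* KO, with the double line between labelled *ERF* KD and the rest. The *WNT7B* term was 2.19 ± 0.313 SE, adjusted p = 0.00799. *FZD2*, a receptor, was called below (term -0.79 ± 0.177 SE, adjusted p = 0.0488), while *FZD10* had labelled *ERF* KD at or under 3 counts. Of 36 TGF-beta, BMP and ID genes 2 were called above (5.56%) and 1 below (2.78%), and 4 and 2 with the block. Over all genes the shares were 2.67% above and 1.48% below. *INHBB*, an activin subunit, stood at 19.8 and 21.1 CPM in WT, 4.28 and 2.98 in labelled *ERF* KD, 31.1 and 25.7 in labelled *CIC* KO, and 93.3 and 36.6 in *ERF* KD + *CIC* KO. *INHBB* had a term of 3.69 ± 0.569 SE, adjusted p = 0.011. *ID4* had a term of 3.90 ± 0.3602 SE, adjusted p = 0.00106, and *TGFBR1*, the type I receptor, of -1.63 ± 0.302 SE, adjusted p = 0.0232. Of 22 YAP and TEAD targets 1 was called above (4.55%) and 3 below (13.6%), 3 and 8 with the block, 1 in all without WT A, WT B or *CIC* KO B and 2 without *ERF* KD A, *ERF* KD B or *ERF* KD + *CIC* KO B. *CTGF*, a matricellular protein, stood at 36.3 and 42.6 CPM in WT, 158 and 209 in labelled *ERF* KD, 33.7 and 36.4 in labelled *CIC* KO, and 19.3 and 29.7 in *ERF* KD + *CIC* KO. The *CTGF* term was -2.74 ± 0.317 SE, adjusted p = 0.00312. *FJX1* had a term of -1.18 ± 0.219 SE, adjusted p = 0.0233 and *WWC1*, the Hippo scaffold KIBRA, of 1.13 ± 0.187 SE, adjusted p = 0.0148.

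The remaining lists had 0 to 3 calls. Over all genes 2.67% were called above and 1.48% below, and 9.55% in either direction with the block. The share of the glycolysis and hypoxia list was near that of all genes. *JUNB*, of 23 AP-1 and immediate early genes (4.35% above; 3 above and 1 below with the block), stood at 21.9 and 16.5 CPM in labelled *ERF* KD and between 49.9 and 64.7 CPM in the 6 others. *JUNB* had a term of 1.53 ± 0.261 SE, adjusted p = 0.0166. *CCND2*, of 15 D cyclin, CDK inhibitor and RB genes (6.67% above; 3 with the block), stood at 192 and 223 CPM in WT, 15.2 and 42.7 in labelled *ERF* KD, 164 and 212 in labelled *CIC* KO, and 165 and 293 in *ERF* KD + *CIC* KO. The *CCND2* term was 3.13 ± 0.626 SE, adjusted p = 0.0313. *EGLN3*, a prolyl hydroxylase and 1 of 38 glycolysis and hypoxia genes (2.63% above; 2 above and 5 below with the block), stood at 1.49 and 1.24 CPM in labelled *ERF* KD and between 9.21 and 14.5 CPM in the 6 others. *EGLN3* had a term of 2.77 ± 0.403 SE, adjusted p = 0.008699. *TMPRSS2*, of 16 prostate lineage genes (6.25% above; 2 with the block), stood at 8.26 and 3.93 CPM in WT, 0.384 and 0.546 in labelled *ERF* KD, 4.37 and 3.42 in labelled *CIC* KO, and 3.89 and 2.48 in *ERF* KD + *CIC* KO. The *TMPRSS2* term was 3.42 ± 0.667 SE, adjusted p = 0.0286. With length-scaled counts it was 2.07 (adjusted p = 0.278). Each of these 4 genes had its low values in labelled *ERF* KD. Their lists had 0 calls without WT B or *ERF* KD + *CIC* KO B for *JUNB*, without 5 of the 8 libraries for *CCND2* and without 6 for *TMPRSS2*, while the *EGLN3* list had 2 without WT A and 3 without *CIC* KO A. Of 29 *ATF4* and unfolded protein response genes *TRIB3* was called above (3.45%; term 1.39 ± 0.238 SE, adjusted p = 0.0169) and *VLDLR* and *SEL1L* below (6.90%; terms -1.38 and -0.91, adjusted p = 0.0174 and 0.0331), with 1 call without WT A, *CIC* KO B or *ERF* KD + *CIC* KO A and 0 without WT B.

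Proliferation, p53 and lipid genes had no called term by edgeR. Over all 14653 genes 2565 had an unadjusted p under 0.05, DESeq2 called 1112 and the block 1400. Of 36 cell cycle genes 2 had an unadjusted p under 0.05 and the block called 1, and of 38 DNA replication genes 1 and 0, with no call by DESeq2 in either. Of 26 p53 targets 2 had an unadjusted p under 0.05 and DESeq2 and the block each called 1. Of 33 sterol and fatty acid synthesis genes 3 had an unadjusted p under 0.05, DESeq2 called 0 and the block 3. Growth factor ligands (24 tested), NOTCH genes (25) and matrix proteases with their inhibitors (21) also had 0, with 7, 7 and 5 at an unadjusted p under 0.05, with 2, 3 and 2 by DESeq2 and 5, 3 and 7 by the block. Without *ERF* KD A the NOTCH list had 3 calls and the cell cycle, ligand and hemidesmosome lists 1 each, and without *ERF* KD + *CIC* KO B the ligand, protease and p53 lists had 1 each. The median term of the cell cycle list was -0.03 and of the DNA replication list 0.09, beside -0.0042 over all genes.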

How the data were processed

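RNA-seq of the 8 PNT2 libraries was done by a sequencing company. The authors deposited, for each library, an estimated count per transcript, which is not normalized, and TPM, which is scaled for transcript length and to the same total in each library, in the column format of kallisto. Their methods name RSEM, and their processing notes list the build hg19. The kallisto version, the annotation and the strandedness are not given in the sources used here. Of 180253 transcripts 153245 (85.0%) matched GENCODE release 29, and their estimated counts, 93.2% to 93.3% of each library, were summed per gene and rounded. The names of the 4 deposited single-loss files carry the opposite letters to the sample labels, and the labels were kept.

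Counts were filtered with filterByExpr, normalized by TMM and fitted with edgeR 4.0.16 (glmQLFit and glmQLFTest, R 4.3.3) in a single fit of the 4 groups, with a biological coefficient of variation of 0.197. A gene is called where its p, Benjamini-Hochberg adjusted over all 14653 genes, is under 0.05. The SE given is the absolute term divided by the square root of the F statistic of that test, not a separately fitted error. Terms resting on libraries at 0 counts, such as those of *POU3F2*, *SLIT2* and *TRPV6*, moved by more than their SE when a library was left out. The step was tested on simulated data. Alternatives used DESeq2 1.42.0, limma 3.58.1 on log2(TPM + 1) and log2(TPM + 0.1), and the others named in the closing section. The main fit held no replicate term, so that calls, SE and p not said to be with the block ignore any pairing of A and B. In an alternative fit the letter was a block that paired the libraries. The correlation across genes of the A and B log2 differences was 0.136 to 0.335 over the 6 pairs of groups, all above 0.1, although the meaning of a letter is not given in the sources used here. That block lowered the coefficient of variation to 0.142.

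The rule named *ERF*, *CIC* and the PEA3 genes, the 10 largest called terms above and below 0 among protein-coding genes with a highest group mean of at least 5 CPM and the same sign in both letters, the 3 largest per group that stands apart and direction, and up to 4 called members per list and direction, with members not called where their role asked for a value. Genes with a group at or under 3 counts in both libraries get levels only. The members, the 33 pathway lists, the study's binding targets and the 6 marker lists were chosen with earlier results of these data known, so that their counts are descriptions. Of the 95 genes the rule names, 36 share exonic bases with another gene, 10 of them on the same strand, and reads in these were divided by the authors' program, or without strand cannot be told apart. Promoters came from RefSeq, and motifs were searched on both strands.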

Additional observations from a re-analysis of the deposited data

Results flagged for a closer look

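The test of the difference between the effect of 1 loss in cells with and without the other picked out 608 genes, 391 above and 217 below the sum of the single effects. In 532 of them labelled *ERF* KD stood apart, with the other 3 group means within 0.5 of the absolute term of each other.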

How the results depend on the processing

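Each of the 608 called genes kept the sign of its term under the 19 alternative fits, save that the filter of 1 CPM in 2 libraries tested 607 of them. These fits reuse the libraries that made the calls, and exchanging the labels cannot change a term, so that the kept signs are not separate support. The count of calls was 616 with RLE factors, 584 with upper-quartile factors, 623 with the 1 CPM filter and 462 with length-scaled counts. It was 1112 with DESeq2 (623 above, 489 below), 1645 with no filter (917, 728), 1400 with the replicate block (780, 620), 312 with limma on log2(TPM + 1) (192, 120), 314 with a pseudocount of 0.1 (206, 108) and 183 with glmTreat against an absolute term of 1 (143, 40). Without each library in turn it ran from 272 to 554, with 213 to 388 above and 59 to 166 below, and with exchanged single-loss labels it was 608. Over the 91 named called genes and the alternative fits, label exchange left out, 1249 pairs of gene and fit kept the call and 389 lost it, with 19 to 39 genes lost without each library, and the cause was not tested. The log2(TPM + 1) scale moved 30 of the 91 terms by over 1.5 times. The *ETV4* term, not called, ran from -0.36 to 0.10 without each library in turn, above 0 without WT A (0.084), *ERF* KD A (0.065) and *CIC* KO B, and was 0.66 CPM on the linear scale. With the other groups within 0.333 of the term, WT stood apart in 2 genes, labelled *CIC* KO in 1, *ERF* KD + *CIC* KO in 7 and no group in 168, and within 0.667 no group did in 13. Without each library in turn labelled *CIC* KO stood apart in 3 to 6 genes and labelled *ERF* KD in 514 to 532. With the block 205 members of the 33 pathway lists were called in place of 94, and labelled *ERF* KD against WT had 2671 calls, labelled *CIC* KO against WT 1, *ERF* KD + *CIC* KO against WT 365, against labelled *ERF* KD 3014 and against labelled *CIC* KO 49. At this depth and with 2 libraries per group the smallest called terms were 0.72 above and -0.77 below the sum.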

Other observations

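Gene families of at least 10 tested genes, grouped by symbol alone, were counted with no test, beside 4.15% called over all genes. The share was 27.3% in cadherins (*CDH1* and *CDH3* above, *CDH2* below, of 11), 23.5% in phosphodiesterases (*PDE1C*, *PDE2A*, *PDE4B* and *PDE8A*, of 17), 21.1% in protocadherins (4 of 19), 18.2% in S100A genes (2 of 11), 17.6% in semaphorins (3 of 17) and 15.4% in claudins (2 of 13). It was 6.19% in solute carriers (14 of 226) and 1.05% in ZNF genes (5 of 475). Several of these genes are also members of the pathway lists. Of 48 large-subunit ribosomal protein genes, 31 small-subunit ones, 45 proteasome genes, 48 NDUF subunits of respiratory complex I and 49 large-subunit mitochondrial ribosomal protein genes 0 were called by edgeR, with 1, 2, 0, 4 and 3 at an unadjusted p under 0.05 and 0, 1, 0, 0 and 0 by DESeq2. Histone genes, 27 tested with 0 called, 6 at an unadjusted p under 0.05 and 3 by DESeq2, had a median term of 1.06.

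The share of tested genes called ran from 2.84% on chromosome 3 to 5.74% on chromosome 4 over the autosomes and X. Chromosome 9 had a median term of -0.31 over 597 genes and chromosome 14 of -0.29 over 469, beside -0.0042 over all genes.

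The summed level of 5 tested endothelial markers of 6 was 9.94 to 14.1 CPM in WT, 4.72 to 16.5 in labelled *ERF* KD, 9.72 to 37.4 in labelled *CIC* KO and 17.0 to 68.7 in *ERF* KD + *CIC* KO. That of 4 tested leukocyte markers of 6 lay between 16.3 and 54.8 CPM and that of 2 tested neuroendocrine or neuronal markers of 6 between 2.20 and 11.4 CPM in the 8 libraries. No member of the 6 marker lists was called by edgeR without the block, 8 had an unadjusted p under 0.05 and DESeq2 called 2. The block called 1 leukocyte member below, beside the basal and luminal members given above.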
